A study of Mus musculus with 12 samples.

Results

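The imprinted genes described here were 46 mouse gene symbols chosen for known expression from 1 parental allele, or for lying beside such a gene in the same imprinted domain. The members were found by symbol in the transcript-to-gene table deposited with the series, and 43 of the 46 symbols were present among 57180 genes, in 18 domains. Nespas, Zrsr1 and Dhcr7os were not found under these symbols. RNA was sequenced from E14-DOX-CRISPRi cells, a line of E14 mouse embryonic stem cells (ESCs) in which doxycycline (DOX) switches on a transcriptional repressor that guide RNAs bring to the start sites of chosen genes. Control cells (Neg) carried scramble guide RNAs, and 3×KD cells carried guide RNAs against Pcx, Me1 and Me2, which encode pyruvate carboxylase and malic enzymes 1 and 2. Both lines were sequenced as naive ESCs, kept in N2B27 medium with 2i and LIF, and as epiblast-like cells (EpiLCs) after 48 hours in N2B27 with Activin A, Fgf2 and XAV939 (EpiLCs day 2). Each of the 4 groups had 3 libraries. All groups descended from 1 clone carrying the repressor. The study describes the compared cells as treated with DOX, although its methods name DMSO or DOX and the labels name neither. With 1 line of each kind, a difference between the Neg and 3×KD lines that arose at transfection and an effect of the knockdown cannot be told apart. The study states in general that experiments were biological triplicates, and the labels do not say what separates the 3 libraries of a group. The p-values below measure the spread between these libraries.

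An imprinted gene is transcribed mainly from the allele inherited from one parent, because a nearby control region was methylated in only one of the germlines. After fertilisation that methylation is kept through rounds of genome-wide demethylation by zinc finger proteins such as ZFP57 and ZFP445, which recruit TRIM28 and SETDB1, and it is copied at replication by DNMT1 and UHRF1. Imprinted genes lie in clusters under shared control and include growth factors, cell cycle inhibitors and long noncoding RNAs that act in the embryo and placenta. The counts analysed here sum both alleles of each gene, so allelic expression was not measured.

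Library totals lay between 11221023 and 19652197 estimated counts. The cell-type field of the labels contradicted the sample titles for 3×KD ESCs and Neg EpiLCs, and the titles were followed. The 12 naive markers listed here summed to between 5720 and 5900 CPM (counts scaled to the same library size) in Neg ESCs, 4330 and 4400 in 3×KD ESCs, 502 and 523 in Neg EpiLCs and 598 and 618 in 3×KD EpiLCs. The 10 formative markers summed to 834 to 864, 735 to 764, 3400 to 3870 and 1900 to 1910 CPM in the same order. Mean levels of Pcx, Me1 and Me2 were 36.2, 69.2 and 101.2 CPM in Neg ESCs against 16.4, 37.3 and 52.2 CPM in 3×KD ESCs, and 51.0, 34.8 and 70.9 CPM in Neg EpiLCs against 24.6, 16.8 and 36.0 CPM in 3×KD EpiLCs. Summed levels were 2.35 to 5.46 CPM for 6 mesoderm markers over all libraries. The 9 extraembryonic endoderm markers summed to 23.1 to 26.5 CPM in Neg ESCs and 32.7 to 35.6 CPM in 3×KD ESCs. In EpiLCs they summed to 32.5 to 37.4 CPM in Neg and 26.8 to 28.9 CPM in 3×KD cells. The 8 trophoblast markers summed to 53 to 55.7 CPM in Neg ESCs and 42.6 to 44.8 CPM in 3×KD ESCs. Their sums were 28.1 to 29.2 CPM in Neg EpiLCs and 30.7 to 34.7 CPM in 3×KD EpiLCs. These trophoblast sums include Ascl2, which is also an imprinted member described below. The 7 neural markers summed to 123 to 135 CPM in Neg ESCs and 120 to 123 CPM in 3×KD ESCs. In EpiLCs they summed to 144 to 148 CPM in Neg and 83.7 to 86.3 CPM in 3×KD cells. Of the 7, 1 was called higher and 2 lower in 3×KD EpiLCs, and 1 higher and 1 lower in 3×KD ESCs. Of the 9 extraembryonic endoderm markers, 3 were called lower in 3×KD EpiLCs and 2 higher in 3×KD ESCs. For the 8 trophoblast markers it was 1 higher and 2 lower in each state. Over all genes tested, 7.88% were called higher and 5.35% lower in 3×KD EpiLCs, and 8.5% and 6.76% in 3×KD ESCs. The 6 fibroblast markers summed to 10.6 to 13.9 CPM in Neg ESCs and 31.6 to 32.6 CPM in 3×KD ESCs. Their EpiLC sums were 6.76 to 8.32 CPM in Neg and 13.7 to 17.1 CPM in 3×KD cells. Of the 6, 2 were called higher and 0 lower in 3×KD cells of each state. Pdgfrb had means of 7.16, 23.7, 2.90 and 8.61 CPM in this order of groups. The means of Col3a1 and Dcn were 0.30 CPM or less in every group. The part of these markers in the members' changes was not tested.

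All 43 genes had at least 10 estimated counts in total and were tested, and the mean level of 39 reached 1 CPM. Per unit of length, the 4 members with the highest mean TPM (relative transcript abundance per length) over all libraries, after Snurf, were Gnas (161 TPM), Rian (130.4 TPM), Meg3 (113 TPM) and Snrpn (91.1 TPM). Snurf was listed at 395 TPM, but this rested on a single very short transcript with at most 12.4 CPM that shares 216 bp of exon with Snrpn on the same strand, so the counts of both genes are uncertain. Peg10 (70.6 TPM), Impact (66.2 TPM), Ube3a (49.5 TPM) and Mest (44.0 TPM) came next. Airn, Rtl1, Zim1 and Slc22a18 had means below 1 CPM in these cells, and no difference in them passed the limits at this depth. The highest level of Rtl1, a retrotransposon-derived gene, was 0.13 CPM in any library.

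Promoter sequence was available from RefSeq (GRCm38.p6, 250 bases before to 50 bases after each start) for 35 of the 43 genes by symbol, in 50 windows, and not for H19, Peg10, Cdkn1c, Trappc9, Rtl1, Peg13, Sgce and Impact. The hexamer TGCCGC, the sequence bound by ZFP57 when methylated, was searched on both strands, where the reverse reads GCGGCA. It was present in 14 of the 50 windows (28%), against 3813 of 32851 windows of all genes (11.6%). Snurf and Snrpn share a window and 2 windows of Mest overlap, so the 14 windows are not independent. The median number of CpG dinucleotides per window was 14.5 for these genes and 7 for all genes. The window of Zdbf2 shown here was the only one of the 50 with 3 hexamers, and 77 of all windows (0.234%) held at least 3. The other Zdbf2 window, at chr1:63273019-63273318, held 0 hexamers and 38 CpG dinucleotides. Which of these windows starts the counted transcripts was not tested. The 5 windows shown were trimmed to 250 bases before and 30 bases after the start. All carry the hexamer, in capitals, and belong to members whose level was called between groups. Zdbf2, Meg3, Snrpn and Mest each also had at least 1 window without it. The Zdbf2 window lies at chr1:63200108-63200387 on the plus strand, Meg3 at chr12:109540746-109541025 on the plus strand, Snrpn at chr7:60005170-60005449 on the minus strand, Mest at chr6:30737800-30738079 on the plus strand and Plagl1 at chr10:13090582-13090861 on the plus strand, all in GRCm38.p6. A match is a description of these letters and not a bound site.
Zdbf2: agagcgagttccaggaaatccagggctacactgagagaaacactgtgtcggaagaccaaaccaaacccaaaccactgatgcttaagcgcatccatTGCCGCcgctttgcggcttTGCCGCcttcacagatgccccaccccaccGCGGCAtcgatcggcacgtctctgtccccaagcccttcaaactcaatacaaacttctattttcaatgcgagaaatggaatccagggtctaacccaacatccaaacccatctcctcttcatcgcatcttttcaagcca
Meg3: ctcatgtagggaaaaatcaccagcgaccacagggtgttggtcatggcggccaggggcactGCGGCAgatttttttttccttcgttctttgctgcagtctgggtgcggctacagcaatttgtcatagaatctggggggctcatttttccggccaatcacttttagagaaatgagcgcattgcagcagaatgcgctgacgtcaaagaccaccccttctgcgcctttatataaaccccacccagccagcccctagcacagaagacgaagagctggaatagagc
Snrpn: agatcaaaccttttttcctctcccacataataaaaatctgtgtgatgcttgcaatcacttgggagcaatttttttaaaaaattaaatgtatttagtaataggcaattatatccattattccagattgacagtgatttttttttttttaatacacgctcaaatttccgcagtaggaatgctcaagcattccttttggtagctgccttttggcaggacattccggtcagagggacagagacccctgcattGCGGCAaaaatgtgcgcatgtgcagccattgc
Mest: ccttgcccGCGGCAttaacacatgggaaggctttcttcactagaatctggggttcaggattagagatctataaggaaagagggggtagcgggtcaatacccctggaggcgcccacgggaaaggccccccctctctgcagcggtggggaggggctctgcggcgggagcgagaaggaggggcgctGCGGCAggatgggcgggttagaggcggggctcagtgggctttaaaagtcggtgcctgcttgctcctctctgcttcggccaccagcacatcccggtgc
Plagl1: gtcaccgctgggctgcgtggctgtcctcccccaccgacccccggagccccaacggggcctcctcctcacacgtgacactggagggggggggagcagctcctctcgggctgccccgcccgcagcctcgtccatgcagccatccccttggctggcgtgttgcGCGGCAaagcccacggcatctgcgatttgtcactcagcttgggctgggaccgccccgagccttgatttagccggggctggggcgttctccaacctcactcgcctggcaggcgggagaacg

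The comparisons asked which imprinted genes differed between 3×KD and Neg cells in each state, which differed between the states in each line, and whether the difference between lines depended on the state. A change was called where the p-value adjusted over the 25446 genes tested was below 0.01 and the absolute log2 fold change exceeded 0.58, and errors given with ± after a log2 fold change are SEs. In ESCs, 10 of the 43 genes were called between 3×KD and Neg, 6 higher and 4 lower, beside 15.3% of all genes tested (8.5% higher and 6.76% lower). Where the mean reached 1 CPM the share was 25.6% of the 39 imprinted genes and 23.6% of all genes, so in ESCs imprinted genes were called at close to the background. In EpiLCs, 15 of 43 were called, 4 higher and 11 lower, beside 13.2% of all genes (7.88% higher and 5.35% lower), and the shares for means of 1 CPM or more were 38.5% and 20.8%. The median log2 fold change of the 43 genes was 0.02 in ESCs and -0.18 in EpiLCs, beside 0.026 and 0.032 over all genes tested. Between the states, 18 genes were called in Neg cells, 17 of them higher in EpiLCs (20.8% of all genes were called, 9.78% higher and 11% lower), and 20 were called in 3×KD cells, 18 of them higher (18.7% of all genes were called, 9.42% higher and 9.32% lower). With means of 1 CPM or more these were 46.2% and 51.3% of the imprinted genes, against 30.7% and 27.9% of all genes. The difference between the 3×KD effects in EpiLCs and ESCs was called for 12 genes at an adjusted p under 0.01. Of these, 10 were towards lower levels in EpiLCs, beside 10% of all genes (5.27% in that direction and 4.76% in the other). Where the mean reached 1 CPM, the share called was 30.8% of the imprinted genes and 16.8% of all genes. In all, 29 of the 43 genes were called at least once, and Airn, Rtl1, Zim1, Copg2, Kcnq1ot1, Slc22a18, Peg12, Blcap, Impact, Mcts2, H13, Trappc9, Inpp5f and Ddc were not called.

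**Figure D1:**
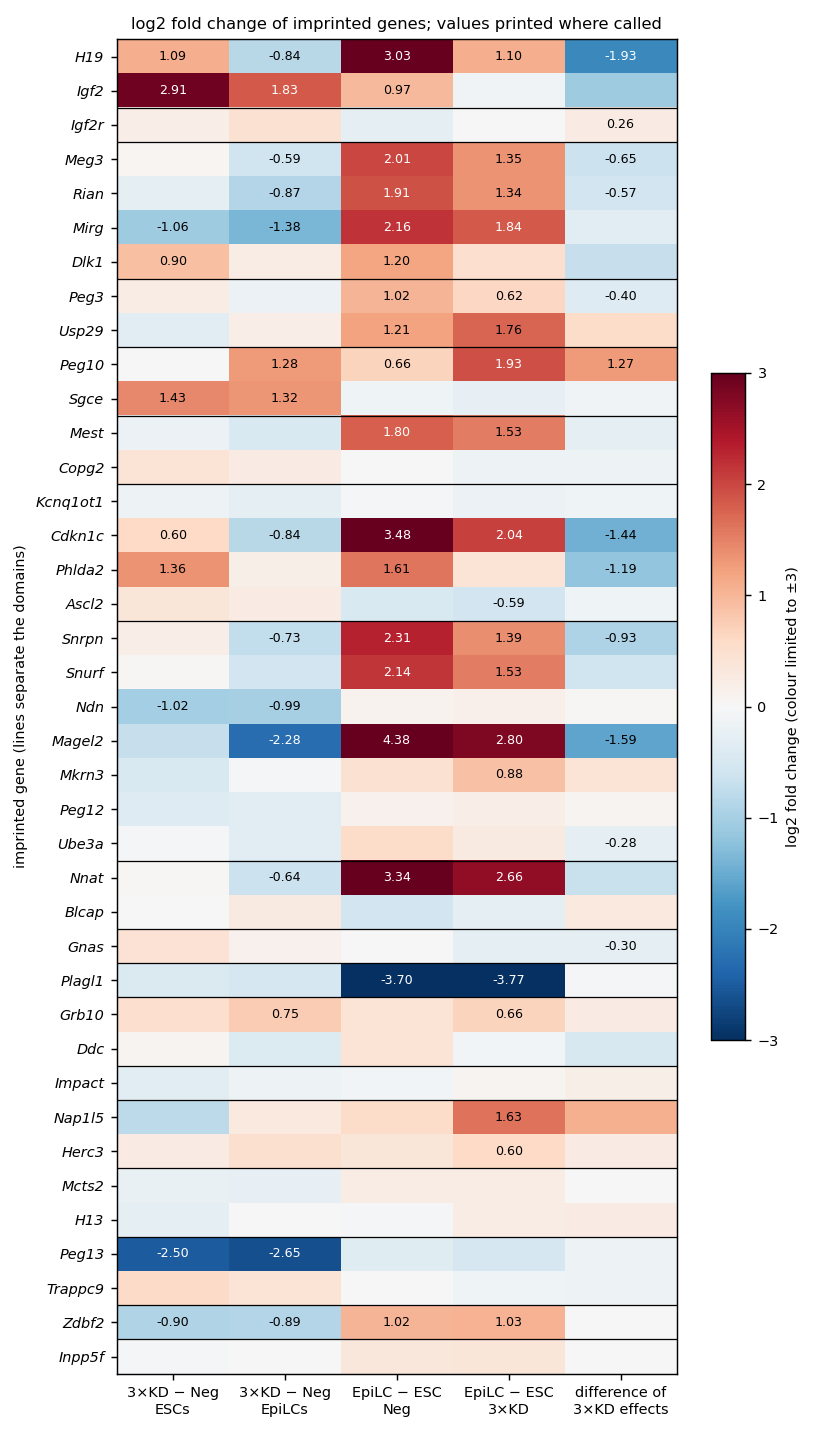
Colour map of the log2 fold change (from -3 in blue to 3 in red) of the 39 imprinted genes whose mean reached 1 CPM, in rows grouped by domain, for the 5 comparisons in columns, with values printed where a change was called. The called cells in the columns for the states are red except for Plagl1 and Ascl2, while the columns for 3×KD in ESCs and in EpiLCs hold 6 and 4 called higher and 4 and 11 called lower.

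Of the 17 genes called between 3×KD and Neg in at least 1 state, 4 were lower in both states (Mirg, Ndn, Peg13 and Zdbf2, a pattern held by 2.88% of all genes tested) and Igf2 and Sgce were higher in both (4.41% of all genes). H19 and Cdkn1c were higher in 3×KD ESCs and lower in 3×KD EpiLCs, a pattern found in 21 genes of the whole table (0.0825%), and no member had the opposite pattern, held by 0.0786% of all genes. Dlk1 and Phlda2 were called higher in 3×KD ESCs and not called in EpiLCs. In EpiLCs alone the limits were passed by Peg10 and Grb10 (higher) and by Meg3, Rian, Snrpn, Magel2 and Nnat (lower). For 8 of the 17 genes the difference between the effects was itself called (H19, Meg3, Rian, Peg10, Cdkn1c, Phlda2, Snrpn and Magel2), and for Dlk1, Grb10 and Nnat it was not.

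**Figure D2:**
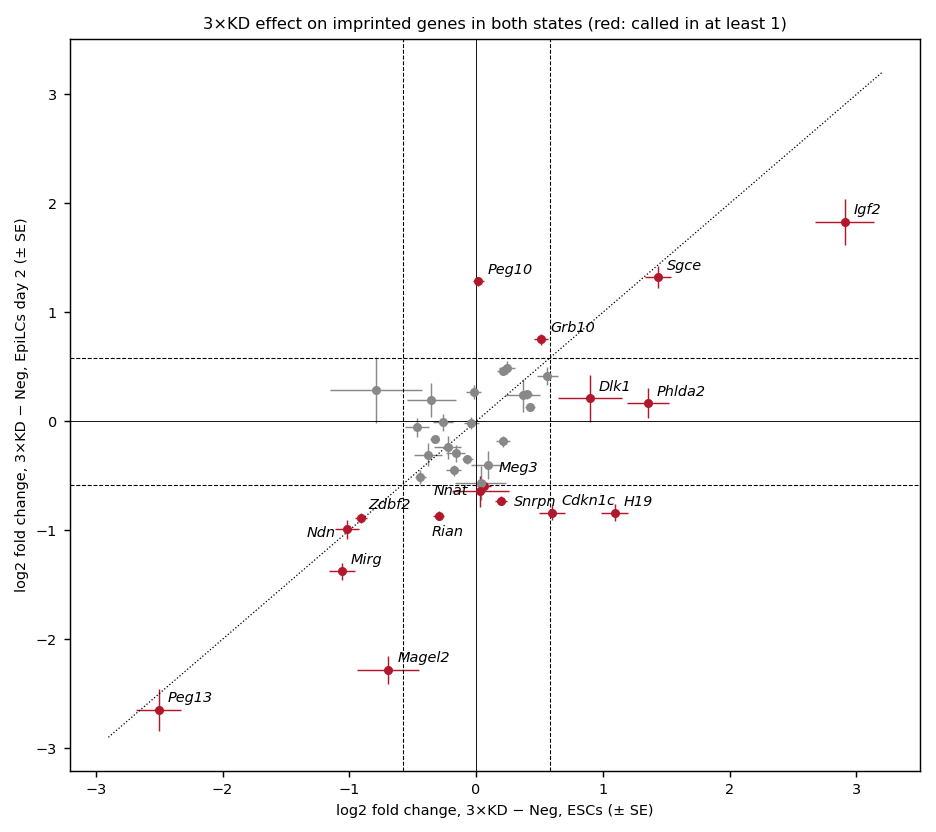
Log2 fold change of 3×KD against Neg in ESCs (horizontal) and in EpiLCs day 2 (vertical) for the 39 imprinted genes whose mean reached 1 CPM, with bars of 1 SE, where red points were called in at least 1 state, dashed lines mark 0.58 and the dotted line marks equal effects. Peg13, Mirg, Ndn, Zdbf2, Sgce and Igf2 share a sign in both states, H19 and Cdkn1c lie to the lower right, and Peg10 stands above 0 on the vertical axis alone.

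The H19/Igf2 domain holds H19, a maternally expressed long noncoding RNA (chr7:142129262-142133957, minus strand; gene positions are in GRCm39), and Igf2, a paternally expressed fetal growth factor (chr7:142204503-142220694, minus strand). H19 measured 3.72, 4.06 and 3.52 CPM in Neg ESCs against 7.19, 8.23 and 8.62 CPM in 3×KD ESCs. After the transition it measured 29.6, 31.8 and 30.7 CPM in Neg EpiLCs against 17.9, 17.9 and 15.7 CPM in 3×KD EpiLCs. The groups did not overlap in either state, but their order turned, with 3×KD above Neg in ESCs and below Neg in EpiLCs. H19 was higher in 3×KD ESCs (log2 fold change 1.09 ± 0.11, adjusted p = 3.5e-07) and lower in 3×KD EpiLCs (log2 fold change -0.84 ± 0.08, adjusted p = 2.8e-07), and the difference between the effects was -1.93 (adjusted p = 4.4e-08). From ESCs to EpiLCs H19 rose 8.17-fold in Neg cells and 2.14-fold in 3×KD cells. Its leading transcript took 68.6% of H19 counts in Neg ESCs and 13.7% in 3×KD ESCs, and with transcript-length offsets the log2 fold changes of 3×KD were 1.05 and -0.88 but neither was called.

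Igf2 was at a low level in Neg cells. It measured 1.33, 0.76 and 1.07 CPM in Neg ESCs against 6.88, 8.66 and 7.97 CPM in 3×KD ESCs. After the transition it measured 2.89, 1.81 and 1.39 CPM in Neg EpiLCs against 7.45, 6.78 and 7.62 CPM in 3×KD EpiLCs. Every 3×KD library exceeded every Neg library of its state, and Igf2 was 7.5-fold higher in 3×KD ESCs (log2 fold change 2.91 ± 0.23, adjusted p = 3.6e-08) and 3.56-fold higher in 3×KD EpiLCs (log2 fold change 1.83 ± 0.21, adjusted p = 2.3e-06), the largest rise among the members called in each of these comparisons. With transcript-length offsets the log2 fold changes were 1.90 and 2.41, so the size of the rise in ESCs depended on how transcript length was treated. The increase between the states in Neg cells (log2 fold change 0.97 ± 0.27, adjusted p = 0.0073) was not stable. It was lost when Neg ESC library 2 or 3, 3×KD ESC library 3, Neg EpiLC library 1 or 3×KD EpiLC library 1 was left out (log2 fold changes between 0.66 and 1.00 in those fits), and it turned to -0.22 with transcript-length offsets. Igf2r, the maternally expressed receptor that clears IGF2 (chr17:12901293-12988614, minus strand), measured 114, 119.8 and 114 CPM in Neg ESCs against 134, 132 and 136 CPM in 3×KD ESCs, and 95.1, 94.6 and 101 CPM in Neg EpiLCs against 142, 129.9 and 129.8 CPM in 3×KD EpiLCs. Its 3×KD libraries lay above the Neg libraries in both states, with log2 fold changes of 0.21 and 0.47 that stayed under the fold limit. The difference between them was 0.26 (adjusted p = 0.0057) and was lost in 8 of the 12 fits that left out a library, where it lay between 0.21 and 0.27, and with transcript-length offsets (0.20). Airn, the noncoding RNA antisense to Igf2r, had between 0.31 and 1.097 CPM.

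The Dlk1-Meg3 domain on chromosome 12 expresses noncoding RNAs from the maternal allele, among them Meg3, Rian, which holds small nucleolar RNAs, and Mirg, which holds microRNAs, and expresses Dlk1, a membrane protein of the Notch ligand type, from the paternal allele. Mirg (chr12:109696198-109715898, plus strand) measured 17.6, 18.9 and 23.8 CPM in Neg ESCs against 9.83, 9.15 and 10.3 CPM in 3×KD ESCs, and 91.7, 94.4 and 86.9 CPM in Neg EpiLCs against 32.7, 37.2 and 35.2 CPM in 3×KD EpiLCs. All 3×KD libraries were below all Neg libraries of their state. Mirg fell in 3×KD ESCs (log2 fold change -1.06 ± 0.10, adjusted p = 2.7e-07) and in 3×KD EpiLCs (log2 fold change -1.38 ± 0.08, adjusted p = 1e-09), and no difference between these effects was called (-0.32 ± 0.13, adjusted p = 0.12). Rian (chr12:109570242-109628150, plus strand) measured 171, 183 and 193 CPM in Neg ESCs against 149, 153 and 145 CPM in 3×KD ESCs, and 708, 670.3 and 686 CPM in Neg EpiLCs against 365, 383 and 384 CPM in 3×KD EpiLCs. The EpiLC libraries of the lines were far apart, and Rian fell there (log2 fold change -0.87 ± 0.04, adjusted p = 9.1e-11), while in ESCs its log2 fold change of -0.30 stayed under the fold limit. For Rian the difference between the effects was -0.57 (adjusted p = 4.2e-06).

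Meg3 (chr12:109506877-109538165, plus strand) measured 77.6, 88.5 and 95.5 CPM in Neg ESCs against 90.7, 94.3 and 89.2 CPM in 3×KD ESCs, and 360.1, 356 and 341 CPM in Neg EpiLCs against 228, 237 and 235 CPM in 3×KD EpiLCs. The ESC groups overlapped and the EpiLC groups did not. Meg3 was lower in 3×KD EpiLCs by a change at the fold limit (log2 fold change -0.59 ± 0.05, adjusted p = 8.9e-08), which was no longer called without Neg EpiLC library 1 or 2 or 3×KD EpiLC library 1 (-0.57 to -0.58), or with library size alone as the scaling (-0.53). The difference between its effects was -0.65 (adjusted p = 1.3e-05), not called with transcript-length offsets (-0.59). All 3 noncoding RNAs rose from ESCs to EpiLCs, by 4.02-fold (Meg3), 3.77-fold (Rian) and 4.48-fold (Mirg) in Neg cells and by 2.55-, 2.54- and 3.59-fold in 3×KD cells. Dlk1 measured 0.89, 0.96 and 0.66 CPM in Neg ESCs against 1.78, 1.34 and 1.503 CPM in 3×KD ESCs, and 1.97, 2.08 and 1.64 CPM in Neg EpiLCs against 2.42, 2.17 and 1.998 CPM in 3×KD EpiLCs. It was called higher in 3×KD ESCs (log2 fold change 0.90 ± 0.25, adjusted p = 0.0087), but the call was lost with DESeq2 and with 9 of the 12 libraries left out in turn, including each ESC library (log2 fold changes between 0.73 and 1.02), and Dlk1 had no more than 2.42 CPM in any library. In Neg cells Dlk1 rose between the states (log2 fold change 1.20 ± 0.25, adjusted p = 0.00073), a call lost with transcript-length offsets (1.18).

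**Figure D3:**
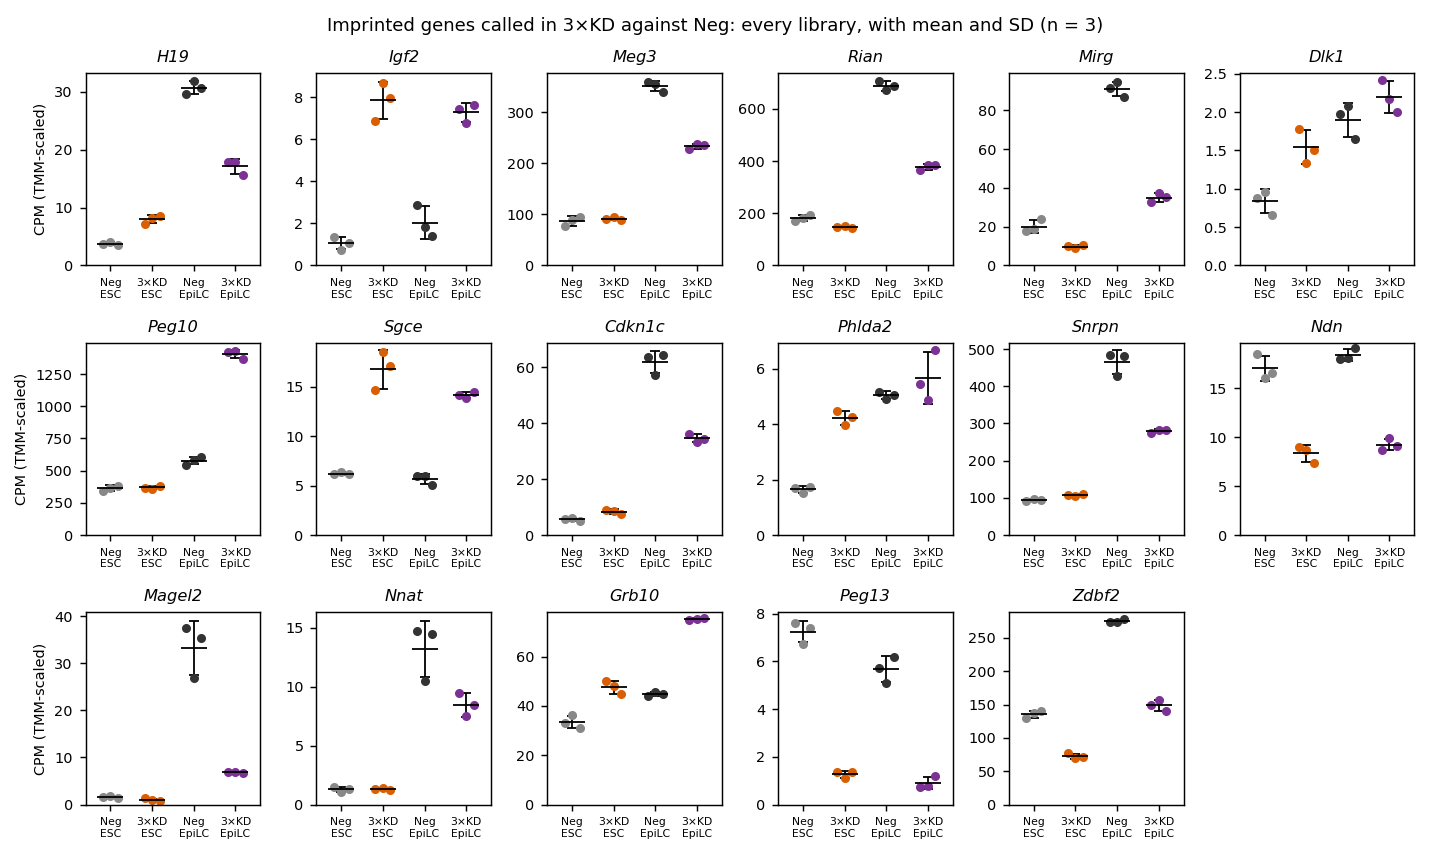
CPM in every library of the 17 imprinted genes called between 3×KD and Neg in at least 1 state, with 1 panel per gene and an axis from 0, where points are libraries and lines are the mean and SD of 3 libraries. Zdbf2, Ndn and Peg13 are lower in 3×KD in both states, H19 and Cdkn1c change order between the states, and Peg10 separates only in EpiLCs.

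Peg10 and Sgce are paternally expressed neighbours on chromosome 6 whose annotated starts lie 98 bp apart on opposite strands. Peg10, a retrotransposon-derived gene needed in the placenta (chr6:4747306-4760517, plus strand), measured 344, 367 and 383 CPM in Neg ESCs against 369, 360.2 and 379 CPM in 3×KD ESCs, and 544, 586 and 602 CPM in Neg EpiLCs against 1424, 1425 and 1369.9 CPM in 3×KD EpiLCs. The ESC groups overlapped, whereas the 3×KD EpiLC libraries were all above the Neg EpiLC libraries. Peg10 was 2.44-fold higher in 3×KD EpiLCs (log2 fold change 1.28 ± 0.04, adjusted p = 3.6e-12) with no difference detected in ESCs (0.02 ± 0.04), and the difference between the effects was 1.27 (adjusted p = 1.1e-09). Sgce, which encodes epsilon-sarcoglycan (chr6:4672057-4747207, minus strand), measured 6.12, 6.33 and 6.17 CPM in Neg ESCs against 14.6, 18.5 and 17.1 CPM in 3×KD ESCs, and 5.91, 5.97 and 5.06 CPM in Neg EpiLCs against 14.1, 13.8 and 14.5 CPM in 3×KD EpiLCs. Sgce was thus higher in all 3×KD libraries of both states, with log2 fold change 1.43 ± 0.10, adjusted p = 9e-09 in ESCs and log2 fold change 1.32 ± 0.10, adjusted p = 2.9e-08 in EpiLCs. Both neighbours were higher in 3×KD EpiLCs, and in 3×KD ESCs Sgce alone was called. Between the states Peg10 rose 1.58-fold in Neg and 3.81-fold in 3×KD cells, and Sgce was not called.

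In the Kcnq1ot1 domain on chromosome 7, the paternally expressed noncoding RNA Kcnq1ot1 silences maternally expressed genes in cis, among them Cdkn1c, the cell cycle inhibitor p57, and Phlda2, a brake on placental growth. Kcnq1ot1 itself ranged from 104 to 156 CPM over all 12 libraries and was not called in any comparison. Cdkn1c (chr7:143012069-143014806, minus strand) measured 5.67, 6.06 and 4.996 CPM in Neg ESCs against 9.03, 8.72 and 7.38 CPM in 3×KD ESCs, and 63.6, 57.3 and 64.4 CPM in Neg EpiLCs against 36.2, 33.4 and 34.2 CPM in 3×KD EpiLCs. As with H19, 3×KD lay above Neg in ESCs and below Neg in EpiLCs. The rise in 3×KD ESCs was small (log2 fold change 0.60 ± 0.10, adjusted p = 0.00014) and fell under the fold limit without Neg ESC library 3, 3×KD ESC library 1 or 3×KD ESC library 2 (0.51 to 0.57), while the fall in 3×KD EpiLCs (log2 fold change -0.84 ± 0.07, adjusted p = 6.2e-08) and the difference between them (-1.44, adjusted p = 6.1e-07) were called in every alternative tried. Cdkn1c rose 11.2-fold between the states in Neg and 4.12-fold in 3×KD cells.

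Phlda2 (chr7:143055282-143056887, minus strand) measured 1.68, 1.51 and 1.73 CPM in Neg ESCs against 4.48, 3.96 and 4.25 CPM in 3×KD ESCs, and 5.17, 4.9 and 5.06 CPM in Neg EpiLCs against 5.46, 4.86 and 6.68 CPM in 3×KD EpiLCs. It was higher in 3×KD ESCs (log2 fold change 1.36 ± 0.16, adjusted p = 4e-06) and its EpiLC groups overlapped, with a difference between the effects of -1.19 (adjusted p = 0.00097) that was not called with transcript-length offsets (-0.87). The rise between the states was called in Neg (1.61) and not in 3×KD cells (0.42 ± 0.14). Ascl2, a transcription factor of the trophoblast, measured 5.23, 4.54 and 4.28 CPM in Neg ESCs against 6.64, 5.304 and 6.08 CPM in 3×KD ESCs, and 3.63, 3.42 and 3.097 CPM in Neg EpiLCs against 4.41, 3.96 and 3.62 CPM in 3×KD EpiLCs. It was called lower in EpiLCs than in ESCs in 3×KD cells, by a change at the fold limit (log2 fold change -0.59 ± 0.14, adjusted p = 0.0027). The call was lost with DESeq2 and without 3×KD ESC library 1 or 3, Neg EpiLC library 1 or 2 or 3×KD EpiLC library 2 or 3 (-0.49 to -0.58). It was also lost with the other scalings (-0.55 and -0.56), the other filters (-0.56 and -0.57) and transcript-length offsets (-0.57). Slc22a18, a transporter gene, had between 0.067 and 0.92 CPM.

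The Snrpn domain is the mouse counterpart of the region deleted in the Prader-Willi and Angelman syndromes, and its paternally expressed genes include Snrpn, which encodes a splicing protein, and Ndn and Magel2, which encode proteins of the MAGE family. Snrpn (chr7:59630427-59820763, minus strand) measured 90.2, 96.01 and 94.01 CPM in Neg ESCs against 106, 105 and 110.3 CPM in 3×KD ESCs, and 485, 427 and 481 CPM in Neg EpiLCs against 275, 283 and 282 CPM in 3×KD EpiLCs. It rose 4.97-fold between the states in Neg and 2.61-fold in 3×KD cells. Snrpn was lower in 3×KD EpiLCs (log2 fold change -0.73 ± 0.04, adjusted p = 1.2e-09), and the difference from its effect in ESCs (0.20, under the fold limit) was -0.93 (adjusted p = 4.1e-08). Snurf, encoded by the same transcript unit, measured 3.01, 2.41 and 2.75 CPM in Neg ESCs against 3.62, 2.74 and 1.96 CPM in 3×KD ESCs, and 12.4, 12.2 and 11.3 CPM in Neg EpiLCs against 7.51, 7.23 and 9.49 CPM in 3×KD EpiLCs. It rose 4.402-fold in Neg and 2.89-fold in 3×KD cells, and its log2 fold change of -0.57 in 3×KD EpiLCs was just under the fold limit and passed it without 3×KD EpiLC library 3 (-0.70).

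Magel2 (chr7:62026758-62031388, plus strand) had the largest rise between the states among the members called, in each line. It measured 1.51, 1.79 and 1.48 CPM in Neg ESCs against 1.29, 0.91 and 0.72 CPM in 3×KD ESCs, and 37.6, 26.8 and 35.3 CPM in Neg EpiLCs against 6.89, 6.84 and 6.81 CPM in 3×KD EpiLCs. Neg cells gained 20.9-fold (log2 fold change 4.38 ± 0.16, adjusted p = 6.8e-13) and 3×KD cells 6.95-fold (log2 fold change 2.80 ± 0.19, adjusted p = 3.4e-09). Magel2 was lower in 3×KD EpiLCs (log2 fold change -2.28 ± 0.13, adjusted p = 6.9e-10), with a difference between the effects of -1.59 (adjusted p = 0.00096), and its ESC levels, near 1 CPM, gave -0.69 ± 0.25 (adjusted p = 0.034). Ndn (chr7:61995473-62000010, plus strand) measured 18.5, 16.1 and 16.6 CPM in Neg ESCs against 9.03, 8.72 and 7.38 CPM in 3×KD ESCs, and 18.05, 18.1 and 19.1 CPM in Neg EpiLCs against 8.75, 9.91 and 9.12 CPM in 3×KD EpiLCs. Ndn was lower in 3×KD cells by a like amount in ESCs (log2 fold change -1.02 ± 0.09, adjusted p = 1.5e-07) and EpiLCs (log2 fold change -0.99 ± 0.09, adjusted p = 1.7e-07), and was not called between the states in either line. After rounding, the Ndn counts in the 3×KD ESC libraries equalled those of Cdkn1c, although the reads were assigned to different transcripts.

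Mkrn3, a ubiquitin ligase gene, measured 11.9, 13.6 and 14.9 CPM in Neg ESCs against 10.2, 9.33 and 9.93 CPM in 3×KD ESCs, and 17.5, 20 and 18.7 CPM in Neg EpiLCs against 16.5, 19.2 and 18.3 CPM in 3×KD EpiLCs. It was called between the states in 3×KD cells (log2 fold change 0.88 ± 0.09, adjusted p = 8.6e-07), where the Neg value was 0.47. Ube3a, the ubiquitin ligase gene of the domain, which is imprinted in neurons, measured 224, 227 and 232 CPM in Neg ESCs against 220.3, 209.8 and 221 CPM in 3×KD ESCs, and 335, 321 and 342 CPM in Neg EpiLCs against 271, 268 and 245 CPM in 3×KD EpiLCs. Its differences stayed under the fold limit (-0.35 for 3×KD in EpiLCs, 0.55 between the states in Neg), and the difference between the 3×KD effects was -0.28 (adjusted p = 0.0023). The difference was no longer called with library size alone (-0.21) or with transcript-length offsets (-0.44), and the rise between the states in Neg passed the limits without 3×KD ESC library 1, Neg EpiLC library 1 or 2 or 3×KD EpiLC library 3 (0.58 to 0.61). Peg12 had between 7.71 and 12.3 CPM.

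Among the remaining paternally expressed genes, Zdbf2 (chr1:63312363-63353735, plus strand), a zinc finger gene, and Peg13 had lower counts in 3×KD cells of both states. Zdbf2 measured 130.1, 137 and 141 CPM in Neg ESCs against 76.6, 69.4 and 71.7 CPM in 3×KD ESCs, and 274, 274 and 278 CPM in Neg EpiLCs against 149, 156 and 140.2 CPM in 3×KD EpiLCs. The 3×KD effect was of the same size in ESCs (log2 fold change -0.90 ± 0.05, adjusted p = 1.9e-10) and EpiLCs (log2 fold change -0.89 ± 0.04, adjusted p = 1.4e-10), and Zdbf2 rose 2.02-fold in Neg and 2.05-fold in 3×KD cells between the states. Peg13, a noncoding RNA within Trappc9 (chr15:72677449-72682173, minus strand), measured 7.62, 6.74 and 7.39 CPM in Neg ESCs against 1.35, 1.097 and 1.37 CPM in 3×KD ESCs, and 5.73, 5.101 and 6.19 CPM in Neg EpiLCs against 0.74, 0.77 and 1.19 CPM in 3×KD EpiLCs. It had the largest fall in 3×KD cells among the members called in each state, with log2 fold change -2.50 ± 0.18, adjusted p = 8.4e-09 in ESCs and log2 fold change -2.65 ± 0.19, adjusted p = 1.1e-08 in EpiLCs. Peg13 shares 1293 bp of exon with Trappc9 on the same strand, so its reads depend on how the quantifier split them. Trappc9, which encodes a subunit of a trafficking complex, measured 26.7, 25.8 and 24.5 CPM in Neg ESCs against 39.99, 35.9 and 37.5 CPM in 3×KD ESCs, and 23.9, 24.8 and 28.7 CPM in Neg EpiLCs against 37.7, 34.9 and 30.4 CPM in 3×KD EpiLCs, above Neg in every 3×KD library and under the fold limit (0.56 and 0.41). The ESC value passed the limit in 5 of the 12 fits without a library (0.59 to 0.60: without Neg ESC library 1, 3×KD ESC library 2, Neg EpiLC library 1 or 2 or 3×KD EpiLC library 3).

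Nnat, a small membrane proteolipid gene (chr2:157401879-157404573, plus strand), measured 1.51, 1.101 and 1.33 CPM in Neg ESCs against 1.35, 1.402 and 1.24 CPM in 3×KD ESCs, and 14.7, 10.5 and 14.5 CPM in Neg EpiLCs against 9.49, 7.48 and 8.43 CPM in 3×KD EpiLCs. It rose 10.1-fold in Neg and 6.32-fold in 3×KD cells between the states. The lower level in 3×KD EpiLCs (log2 fold change -0.64 ± 0.14, adjusted p = 0.0013) was lost without Neg EpiLC library 1 or 3 or 3×KD EpiLC library 2 (-0.55 to -0.57), and with transcript-length offsets (-0.73). Blcap, which overlaps Nnat on the other strand, had between 18.7 and 29.9 CPM and was not called. With transcript-length offsets Blcap was called in 3×KD EpiLCs (0.70), and it was called lower in Neg EpiLCs than in Neg ESCs in 4 alternatives (-0.59 to -0.65, against -0.56), among them those without Neg ESC library 1 or Neg EpiLC library 3.

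Plagl1, a zinc finger gene that restrains proliferation (chr10:12936248-13007438, plus strand), was the only member called lower in EpiLCs in both lines. It measured 136, 139 and 147 CPM in Neg ESCs against 105, 103 and 103 CPM in 3×KD ESCs, and 10.3, 11.5 and 10.8 CPM in Neg EpiLCs against 7.45, 7.801 and 7.62 CPM in 3×KD EpiLCs. Between the states the log2 fold change was -3.70 ± 0.05 in Neg and -3.77 ± 0.05 in 3×KD cells (adjusted p = 2.8e-18 and adjusted p = 7e-18). Within each state the 3×KD libraries were below the Neg libraries, with log2 fold changes of -0.44 and -0.51 that were under the fold limit. With transcript-length offsets the value in EpiLCs was -1.34 and was called.

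Mest, a hydrolase-like gene of mesoderm (chr6:30723546-30752058, plus strand), measured 64.2, 76.1 and 71.1 CPM in Neg ESCs against 59.4, 61.9 and 66.1 CPM in 3×KD ESCs, and 251, 235 and 254 CPM in Neg EpiLCs against 180.1, 186 and 175 CPM in 3×KD EpiLCs. It rose 3.49-fold in Neg and 2.89-fold in 3×KD cells, and its 3×KD effect in EpiLCs (-0.45) was under the fold limit. Mest shares 3850 bp of exon with Copg2 on the opposite strand, and Copg2, a coatomer subunit gene, had between 77.8 and 109.7 CPM and was called in 3×KD ESCs with transcript-length offsets alone (0.73). Peg3, a zinc finger gene, and Usp29, a ubiquitin protease gene, have annotated starts 108 bp apart on opposite strands. Peg3 (chr7:6706882-6733468, minus strand) measured 81.8, 79.8 and 87.7 CPM in Neg ESCs against 96.8, 94.2 and 98.2 CPM in 3×KD ESCs, and 178, 156 and 173 CPM in Neg EpiLCs against 156, 146 and 144 CPM in 3×KD EpiLCs. It rose 2.03-fold in Neg and 1.54-fold in 3×KD cells, and the difference between its 3×KD effects was -0.40 (adjusted p = 0.00092), not called with transcript-length offsets. Usp29 measured 2.93, 1.79 and 2.24 CPM in Neg ESCs against 1.66, 1.95 and 1.76 CPM in 3×KD ESCs, and 5.73, 4.497 and 5.69 CPM in Neg EpiLCs against 5.89, 6.07 and 6.24 CPM in 3×KD EpiLCs. It rose 2.32-fold in Neg and 3.38-fold in 3×KD cells, but with transcript-length offsets the Neg rise was 0.23 on the log2 scale and was not called. Zim1 had between 0.24 and 0.96 CPM.

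Grb10, an adaptor that limits insulin and growth factor signalling (chr11:11880498-11988683, minus strand), measured 33.2, 36.2 and 31.05 CPM in Neg ESCs against 49.9, 48.04 and 44.8 CPM in 3×KD ESCs, and 44.04, 45.6 and 44.6 CPM in Neg EpiLCs against 74.9, 75.4 and 75.7 CPM in 3×KD EpiLCs. All 3×KD libraries exceeded the Neg libraries of their state, and Grb10 was called higher in EpiLCs (log2 fold change 0.75 ± 0.05, adjusted p = 9.8e-09) and was under the fold limit in ESCs (0.51). With transcript-length offsets the EpiLC value was 0.61 and was not called. No difference between these effects was called (0.24, adjusted p = 0.046). Between the states Grb10 was called in 3×KD cells (0.66), where the value in Neg cells was 0.42. Its neighbour Ddc, which encodes aromatic amino acid decarboxylase, had between 4.47 and 6.57 CPM.

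Gnas, which encodes the stimulatory G protein alpha subunit and overlapping imprinted transcripts, measured 211, 213 and 197 CPM in Neg ESCs against 274, 279.6 and 279 CPM in 3×KD ESCs, and 203, 211 and 209 CPM in Neg EpiLCs against 236, 225 and 219 CPM in 3×KD EpiLCs. Its 3×KD effects of 0.43 and 0.13 were under the fold limit, and the difference between them was -0.30 (adjusted p = 0.00066), a call lost with library size alone (-0.22) and with transcript-length offsets (-0.30). Nap1l5, a retrogene within Herc3, measured 1.42, 1.17 and 0.76 CPM in Neg ESCs against 0.61, 0.55 and 0.72 CPM in 3×KD ESCs, and 1.36, 1.48 and 1.96 CPM in Neg EpiLCs against 1.49, 2.81 and 1.56 CPM in 3×KD EpiLCs. It was called higher in EpiLCs in 3×KD cells (log2 fold change 1.63 ± 0.34, adjusted p = 0.00075), against 0.55 ± 0.32 in Neg cells. Herc3 measured 17.02, 18.03 and 17.6 CPM in Neg ESCs against 20.2, 19.9 and 22.3 CPM in 3×KD ESCs, and 23.2, 22.6 and 21.6 CPM in Neg EpiLCs against 31.9, 31.5 and 31.3 CPM in 3×KD EpiLCs. Its rise in 3×KD cells (log2 fold change 0.60 ± 0.06, adjusted p = 3.5e-07) was at the fold limit and was lost without 3×KD ESC library 2 (0.57). Impact, a translational regulator gene, lay between 133 and 176 CPM, Inpp5f between 28.5 and 39.5 CPM, H13 between 17.9 and 24.1 CPM and Mcts2 between 9.15 and 14.2 CPM, and none of these was called, except Inpp5f between the states in Neg with transcript-length offsets (0.63).

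**Figure D4:**
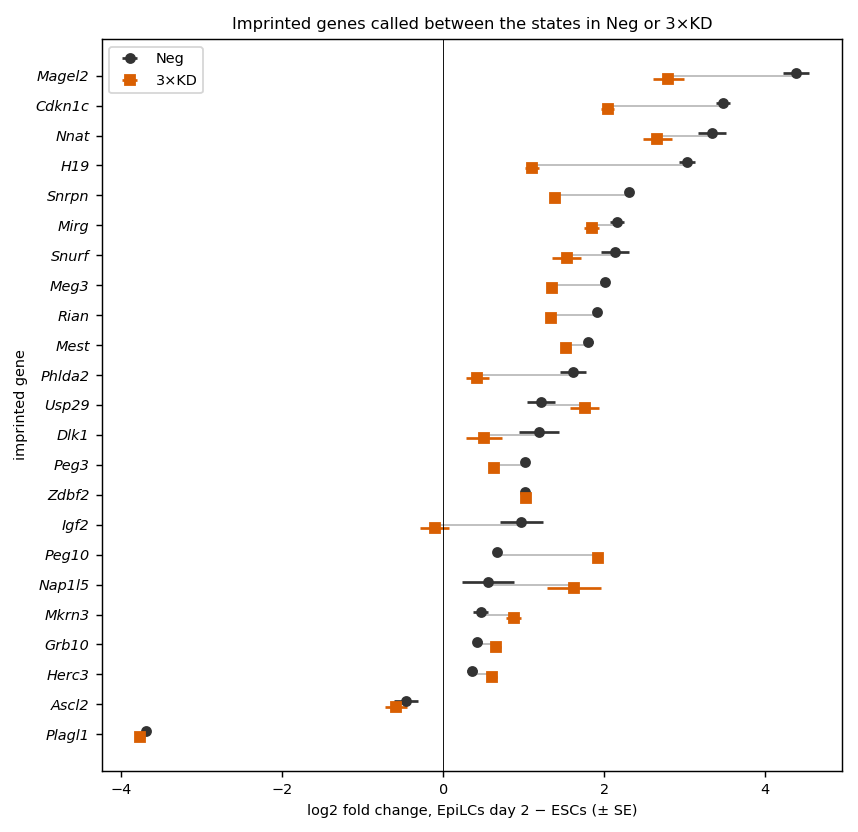
Log2 fold change from ESCs to EpiLCs day 2 in Neg (circles) and in 3×KD cells (squares), with bars of 1 SE, for the 23 imprinted genes called between the states in at least 1 line, ordered by the Neg value. Magel2, Cdkn1c, Nnat and H19 head the order with Neg values of 4.38, 3.48, 3.34 and 3.03, and Plagl1 stands alone at -3.70.

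From ESCs to EpiLCs, 14 genes were called higher in both lines, beside 6.26% of all genes tested (H19, Meg3, Rian, Mirg, Peg3, Usp29, Peg10, Mest, Cdkn1c, Snrpn, Snurf, Magel2, Nnat and Zdbf2). Of the 11 members taken as maternally expressed, 6 were called higher in Neg EpiLCs than in Neg ESCs and none was called lower. Their median log2 fold change was 1.61, and 7 of the 11 had values above 0. Values below 0 were those of Igf2r (-0.26), Ascl2 (-0.46), Zim1 (-0.29) and Slc22a18 (-0.22). Of the 23 taken as paternally expressed, 11 were called higher and 1 lower, with a median of 0.55, beside 9.78% and 11% of all genes. In 3×KD EpiLCs against Neg EpiLCs, 1 maternally expressed gene was called higher and 5 lower, and 3 paternally expressed genes were called higher and 6 lower, beside 7.88% and 5.35% of all genes, with medians of -0.29 in each class. Meg3, Rian and Mirg share a domain, as do Snrpn, Ndn and Magel2, so the counts by class are not of independent genes. The formative markers also had a lower sum in 3×KD than in Neg EpiLCs (1900 to 1910 against 3400 to 3870 CPM) and the naive markers a higher one. In bulk RNA fewer cells in a state and less RNA per cell cannot be told apart. Over genes whose mean reached 1 CPM, the median log2 fold change of each chromosome that carries a member lay between -0.05 and 0.06 in both comparisons of 3×KD with Neg.

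The list of 26 genes for imprint maintenance and DNA methylation was compared in the same fits. In 3×KD ESCs, 1 was called higher and 7 lower, with a median of -0.23 over the 26 genes, beside 15.3% of all genes called and 23.6% of those whose mean reached 1 CPM. In 3×KD EpiLCs, 1 was called higher and 4 lower, with a median of -0.22, beside 13.2% and 20.8% called, so that the 19.2% of the list was close to the share of expressed genes. The difference between the 3×KD effects in EpiLCs and ESCs was called for 14 of the 26 (53.8%), 7 above 0 and 7 below. That compares with 10% of all genes and 16.8% of those whose mean reached 1 CPM. Zfp57, the zinc finger gene of imprint control regions, had means of 238 ± 4.95 CPM (SD, n = 3) in Neg ESCs and 159 ± 5.13 CPM in 3×KD ESCs, a change at the fold limit (log2 fold change -0.58 ± 0.04, adjusted p = 4.1e-09) that was lost in 8 of the 12 fits without a library (-0.55 to -0.58). Its means were 142 and 154 CPM in Neg and 3×KD EpiLCs, where it was not called. For Zfp57 the difference between the effects was 0.70 (adjusted p = 2.3e-07). Zfp445 was called lower in 3×KD EpiLCs (log2 fold change -0.81 ± 0.04, adjusted p = 9.1e-11), and Setdb1, the histone methyltransferase recruited with TRIM28, in 3×KD ESCs (log2 fold change -0.61 ± 0.04, adjusted p = 7.8e-10). The Setdb1 call was lost without 3×KD ESC library 1, Neg EpiLC library 1 or 2 or 3×KD EpiLC library 3 (-0.57 to -0.58). Dnmt3b, a de novo methyltransferase, had a mean of 1367 ± 96.6 CPM in Neg EpiLCs and 663 ± 5.31 CPM in 3×KD EpiLCs (log2 fold change -1.04 ± 0.04, adjusted p = 3.2e-11), and its cofactor Dnmt3l was lower in 3×KD ESCs (-0.64) and 3×KD EpiLCs (-0.73). Yy1, a zinc finger gene, was lower in both states (-0.67 and -0.62), and neither call was kept with transcript-length offsets (-0.55 and -0.51). Tet2 and Zfp42, both high in naive cells, were lower in 3×KD ESCs (-0.64 and -1.27) and not called in 3×KD EpiLCs. Dppa3, which guards methylation in the zygote, was lower in 3×KD ESCs (-0.82) and higher in 3×KD EpiLCs (1.28). Uhrf1 was higher in 3×KD ESCs (log2 fold change 0.62 ± 0.03, adjusted p = 8.7e-11). Dnmt1, which copies methylation, and Trim28 were not called in either state. The difference between the effects was called for Dnmt1 (-0.29, adjusted p = 0.00038) and not for Trim28. Dnmt3b and Dppa3 also stand on the formative and naive marker lists, as does Zfp42 on the naive list.

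**Figure D5:**
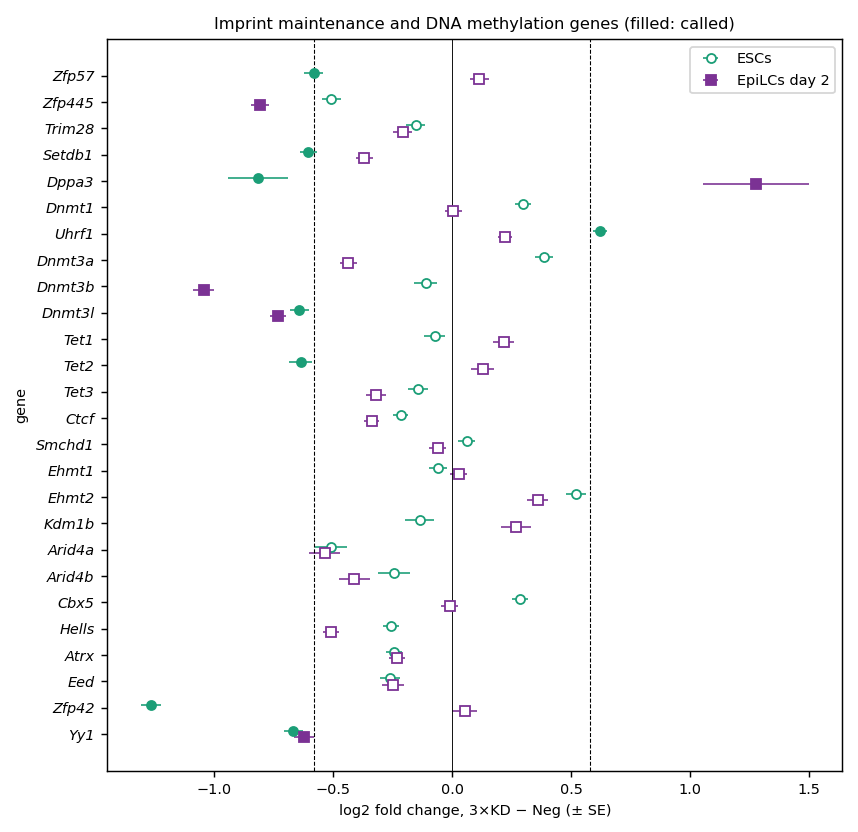
Log2 fold change of 3×KD against Neg in ESCs (circles) and EpiLCs day 2 (squares), with bars of 1 SE, for the 26 genes of imprint maintenance and DNA methylation, where filled symbols were called and dashed lines mark 0.58. Zfp42 and Dnmt3b have the lowest values in ESCs and in EpiLCs (-1.27 and -1.04), and Dppa3 lies on opposite sides of 0 in the states.

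Of 38 other genes in or beside the imprinted domains that were tested, Herc6 was called higher and Casd1, Cobl and Chrac1 lower in 3×KD ESCs, which is 10.5% beside 15.3% of all genes, with a median of -0.02 over the 38. In 3×KD EpiLCs 4 were higher and 8 lower at an adjusted p under 0.01, each of them under the fold limit, beside 14.3% of all genes higher and 15.6% lower at that p, with a median of 0.05. Casd1, beside Sgce, had -0.83 in 3×KD ESCs. Chrac1, near Trappc9, had -0.63, and was not called without Neg ESC library 1 or 3×KD ESC library 1 (-0.51 and -0.55). Herc6, beside Herc3, had 0.62, and its call was lost with DESeq2 and without any 1 of the ESC libraries except Neg ESC library 1 (0.52 to 0.67). The antisense RNA Gnasas1, of which Nespas is an older name in RefSeq, had group means between 12.6 and 23.0 CPM and shares 1112 bp of exon with Gnas on the opposite strand. It was not called between 3×KD and Neg. In a list of 12 other genes taken as imprinted, of which the status of Nkx1-2 was not established, Slc38a4, an amino acid transporter gene of the placenta, was higher in 3×KD ESCs (log2 fold change 0.84 ± 0.04, adjusted p = 7.3e-11) and 3×KD EpiLCs (log2 fold change 0.77 ± 0.04, adjusted p = 2e-10), as was Pde10a (0.80 and 0.85), whose ESC call was lost with DESeq2. Jade1 was called lower in 3×KD EpiLCs (-0.66) and Nkx1-2 in both states (-3.07 and -2.86).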

How the data were processed

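RNA was sequenced from 12 libraries, 3 in each of 4 groups. The library protocol names depletion of ribosomal RNA, while the molecule field of the labels reads polyA RNA, so how RNAs without a poly(A) tail were sampled is uncertain. Per the labels and methods, reads were trimmed with Trim Galore 0.6.7 and aligned to GRCm39 with STAR 2.7.9a, and transcripts were quantified with Salmon 1.10.1. The authors deposited estimated counts and TPM per transcript for each library. For each gene, the deposited estimated counts of its transcripts were added up and then rounded, and so were the deposited TPM values (unrounded), which served to compare levels between genes.

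Genes reaching 10 counts over all libraries were tested with edgeR 4.0.16 (R 4.3.3; quasi-likelihood test, TMM factors of 0.961 to 1.04), in 1 fit over all 4 groups, with Benjamini-Hochberg adjustment over 25446 genes and two-sided p-values. Calls required an adjusted p below 0.01 together with a log2 fold change beyond 0.58 in either direction, and for the difference between the effects in the 2 states an adjusted p under 0.01. CPM used the TMM-scaled library size, and SEs were taken from the fit. The test was also run on simulated counts, and that outcome is not given here. No column of unmapped samples was used. Exon overlaps came from the GRCm39 annotation, and promoter windows from RefSeq (GRCm38.p6), with no coordinates moved between builds. No pairing of the libraries by replicate number was detected: over 18 pairs of same-numbered libraries the correlation of deviations lay between -0.135 and 0.1. This cannot show that the libraries were unpaired. Alternatives were DESeq2 1.42.0, other scalings and filters, transcript-length offsets, a replicate block, the 2 groups alone, other call limits, the deposited TPM and each library left out in turn. All members called in a comparison are named in the text. The members and gene lists were chosen with earlier results of these data known.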

Additional observations from a re-analysis of the deposited data

Results flagged for a closer look

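For 12 imprinted genes the effect of 3×KD differed between the states by edgeR's test of the difference itself, given as the log2 fold change in EpiLCs minus that in ESCs. Of the noncoding RNAs, H19 had a difference of -1.93 ± 0.13 (adjusted p = 4.4e-08), Meg3 one of -0.65 ± 0.08 (adjusted p = 1.3e-05) and Rian one of -0.57 ± 0.06 (adjusted p = 4.2e-06). In the Kcnq1ot1 domain the difference was -1.44 ± 0.12 for Cdkn1c (adjusted p = 6.1e-07) and -1.19 ± 0.22 for Phlda2 (adjusted p = 9.7e-04). In the Snrpn domain it was -0.93 ± 0.06 for Snrpn (adjusted p = 4.1e-08), -1.59 ± 0.29 for Magel2 (adjusted p = 9.6e-04) and -0.28 ± 0.06 for Ube3a (adjusted p = 2.3e-03). Peg3 had -0.40 ± 0.07 (adjusted p = 9.2e-04) and Gnas -0.30 ± 0.05 (adjusted p = 6.6e-04). The difference was above 0 for Peg10 (1.27 ± 0.06, adjusted p = 1.1e-09) and Igf2r (0.26 ± 0.06, adjusted p = 5.7e-03).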

How the results depend on the processing

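Of 75 calls on members, 57 held in every alternative and 18 were lost in at least 1, while 8 changes not called passed the limits in at least 1. With transcript-length offsets the direction turned for Igf2 between the states in Neg (-0.22), Kcnq1ot1 in 3×KD EpiLCs (0.19) and Herc3 in 3×KD ESCs (-0.064) and between the states in Neg (-0.014), and 6 differences between the 3×KD effects were called in place of 12 (Igf2r, Meg3, Peg3, Phlda2, Ube3a and Gnas were lost). The cause was not tested. Over all genes, 731 such differences were called with these offsets and 2553 without them. With the limit at 0.05 for the adjusted p and none for the fold, 28 members were called in ESCs and 30 in EpiLCs (10142 and 9694 of all genes, against 3885 and 3367). Without each library in turn the counts were 8 to 12 (3×KD in ESCs), 13 to 16 (3×KD in EpiLCs), 17 to 19 (states in Neg), 19 to 20 (states in 3×KD) and 11 to 13 (difference between effects). With a replicate block they were 9, 15, 17, 20 and 11. No pairing by number was detected, and 3 of the 18 pairs correlated best with their own number. The deposited TPM gave the direction of 62 of 63 called changes, the exception being Igf2 between the states in Neg. The fit with the 2 groups alone was not run for the difference between effects, which needs all 4 groups. Genes below 1 CPM were too shallow for calls to be read.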
